A study of Arabidopsis thaliana with 6 samples.

Results

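GL2, TTG2 and MUM4, genes that act downstream of the MYB-bHLH-WD40 complex in the epidermis and seed coat, were described together with the root hair genes RHD6, RSL4, EXPA7, EXPA18 and COBL9 in Arabidopsis thaliana plants that expressed a grapevine MYB factor. The members were taken by locus identifier, and these 8 loci, of 32627 on the array, were read by 9 features of 37118. A feature is a set of probes summarised to 1 value, and TTG2 had a pair of them. COBL9 was read by 3 probes and each other member feature by 4. The 3 35S::VvMYBPAR lines, PAR18-2, PAR9-2 and PAR36-4, carried VvMYBPAR behind the 35S promoter of cauliflower mosaic virus, which drives expression in most tissues of the plant. The 3 control lines, Cont1-1, Cont2-3 and Cont5-1, had been transformed with an empty vector. All 6 lines were of the Columbia ecotype and had grown for 3 weeks on agar with 30 mg/l kanamycin, at 22 °C with 16 h of light per day. Total RNA of whole plants was read on 1 single-colour NimbleGen array per line. Per the labels each sample came from a culture of its own, and line, culture and array cannot be told apart. The comparison asked whether epidermal genes of the complex differ when the grapevine factor is expressed throughout the plant.

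A complex of a MYB factor, a bHLH factor and the WD40 protein TTG1 sets cell fates in the Arabidopsis epidermis and pigment in the seed coat. In leaves it turns on GL2 and TTG2 in cells that become trichomes. In roots the MYB member WER and the bHLH members GL3 and EGL3 turn on GL2 in cells that stay hairless, and GL2 holds back RHD6 and with it the root hair genes. In the seed coat the same kind of complex, with TT2 or MYB5, acts on tannin genes such as BAN and on mucilage genes such as MUM4.

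Values are log2 RMA intensities, and differences are log2 differences of group means, the 35S::VvMYBPAR lines minus the empty vector lines. Array medians lay between 859.1 and 887 intensity units. Feature means fell into a dim and a bright population, separated by a trough at 7.12, and values below the trough may be background, since no detection call was used. BAN, a direct target of the complex in seeds, differed by 6.21 (SE 0.33; limma, Benjamini-Hochberg adjusted p = 0.0283), and its lowest value in a 35S::VvMYBPAR line was 10.43. When 1 line was left out, BAN differed by 5.82 to 6.45 and passed in 1 of the 6 fits, that without PAR18-2, and it did not pass with no moderation. PAR9-2 stood apart in the morning clock gene CCA1, at 7.54 against at least 11.62 on each other array. Other lines differed in clock genes too, with LHY at 9.83 in Cont1-1 and 13.04 in Cont5-1, and ELF4 at 12.89 and 8.43 in these lines. Markers of leaf, such as RBCS1A (means 14.96 and 14.88), were high in the 35S::VvMYBPAR and in the empty vector lines. Root markers ranged widely in both groups. The endodermal gene CASP1, the brightest of them, had means of 12.57 and 12.93. MYB36 had 8.36 and 8.38, and WOX5, at 6.05 and 5.58, lay below the trough. In whole plants fewer cells of a type and less RNA per cell cannot be told apart.

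No member feature passed the test across all features: 0 of 9 reached an adjusted p under 0.05 in limma, where 0.00539% of all features did, and the smallest adjusted p of a member was 0.915. At an unadjusted p under 0.05, 2 of the 9 were higher and 0 lower, both of the 2 being features of TTG2, where 2.41% of all features were higher at that level. The same 2 had every 35S::VvMYBPAR value above every empty vector value, as had 6.32% of all features. An ordinary linear model fitted feature by feature called 0 members as well, with 1 of the 9 at an unadjusted p under 0.05. Leaving out PAR18-2 moved the count at an unadjusted p under 0.05 to 3, the second TTG2 feature with EXPA7 and EXPA18, and leaving out Cont1-1 or Cont2-3 moved it to 1, the second TTG2 feature. Without PAR9-2 the 2 were GL2 and the second TTG2 feature, so the first feature of TTG2 was past that level in 2 of the 6 fits. Of the 8 loci, 6 had a difference above 0, as had 53.3% of all loci. The median difference was 0.33 over the 3 targets of the complex and 0.02 over the 5 root hair genes, beside 0.02 over all loci.

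**Figure D1:**
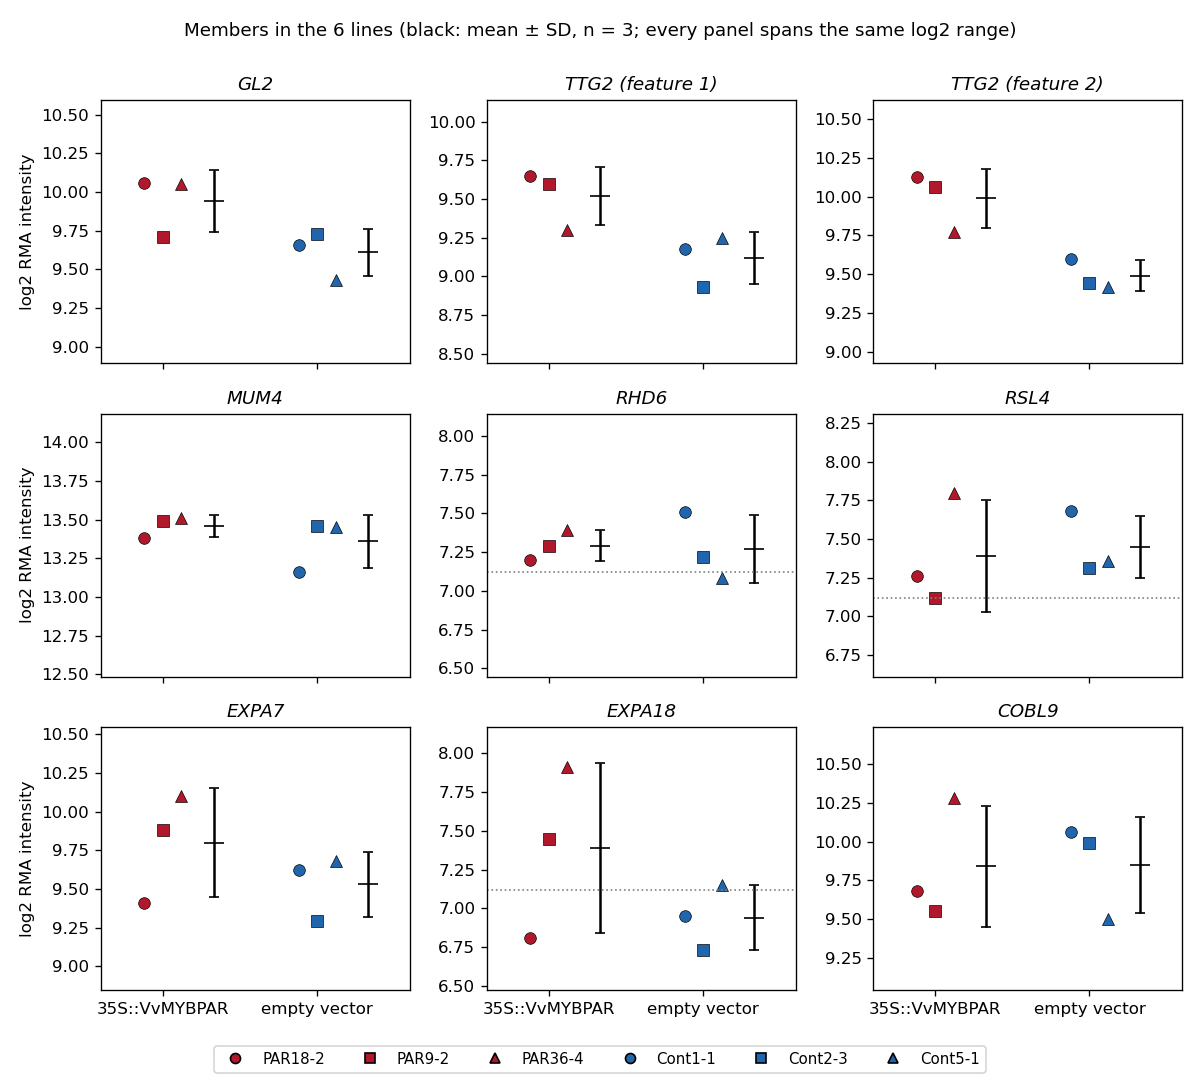
Log2 RMA intensity (vertical axis) of each member feature in the 3 35S::VvMYBPAR lines (red, left) and the 3 empty vector lines (blue, right), with the mean ± SD of each group in black and the trough between dim and bright features, 7.12, as a dotted line where it falls in the panel. Both TTG2 features lie higher in every 35S::VvMYBPAR line than in any empty vector line, and GL2 overlaps narrowly. MUM4, RSL4, EXPA7, EXPA18 and COBL9 have their highest value in PAR36-4.

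TTG2 (AT2G37260) encodes a WRKY factor of trichomes and seed coats that is a target of the complex. Its second feature, the brighter of the pair, stood at 10.13 in PAR18-2, 10.06 in PAR9-2 and 9.77 in PAR36-4, against 9.60 in Cont1-1, 9.44 in Cont2-3 and 9.42 in Cont5-1. Every 35S::VvMYBPAR line was thus above every empty vector line, with the narrowest gap between PAR36-4 and Cont1-1. The means were 9.99 ± 0.19 and 9.49 ± 0.10 (SD, n = 3 each), a difference of 0.50 (SE 0.13; 95% interval 0.17 to 0.82), or 1.41-fold. The difference did not pass across all features (limma, adjusted p = 0.915, unadjusted p = 0.00894). An exact permutation test, two-sided, gave p = 0.1, the smallest that 3 against 3 samples allow.

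The first TTG2 feature ran the same way. It stood at 9.65, 9.60 and 9.30 in PAR18-2, PAR9-2 and PAR36-4, against 9.18, 8.93 and 9.25 in Cont1-1, Cont2-3 and Cont5-1. The groups were apart by no more than the step between PAR36-4 and Cont5-1. The difference was 0.40 (SE 0.15; 95% interval 0.04 to 0.75; limma, adjusted p = 0.915). Both features read 1 locus and are not independent of each other. PAR18-2 was the highest line in both, and PAR36-4 the lowest of the 35S::VvMYBPAR lines. When 1 line was left out, the difference of the second feature lay between 0.43, without PAR18-2, and 0.61, without PAR36-4.

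GL2 (AT1G79840) encodes a homeodomain factor that promotes trichome growth in shoots and the hairless fate in roots. It stood at 10.06 in PAR18-2, 9.71 in PAR9-2 and 10.05 in PAR36-4, against 9.66 in Cont1-1, 9.73 in Cont2-3 and 9.43 in Cont5-1. The groups overlapped by the narrow step between PAR9-2 and Cont2-3, and the other two 35S::VvMYBPAR lines were above all empty vector lines. The means were 9.94 ± 0.20 and 9.61 ± 0.15 (SD, n = 3 each), a difference of 0.33 (SE 0.15; 95% interval -0.03 to 0.69; limma, adjusted p = 0.915). Without PAR9-2, the line with the low CCA1 value, the difference was 0.45, and without Cont5-1 it was 0.24, the highest and lowest values when 1 line was left out.

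MUM4 (AT1G53500) encodes a rhamnose synthase that supplies the pectin of seed coat mucilage. It stood at 13.38, 13.49 and 13.51 in PAR18-2, PAR9-2 and PAR36-4, against 13.16, 13.46 and 13.45 in Cont1-1, Cont2-3 and Cont5-1. Apart from a lower value in Cont1-1, all lines lay close together. The difference was 0.10 (SE 0.12; 95% interval -0.20 to 0.40; limma, adjusted p = 0.920), and without Cont1-1 it was 0.00315. The interval leaves room for a difference of the size seen in GL2.

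The root hair regulators had differences near 0. RHD6 (AT1G66470), a bHLH factor that starts root hair formation, stood at 7.20, 7.29 and 7.39 in PAR18-2, PAR9-2 and PAR36-4, against 7.51, 7.22 and 7.08 in Cont1-1, Cont2-3 and Cont5-1. All 6 values lay close to the trough of 7.12, and the 35S::VvMYBPAR lines fell inside the range of the empty vector lines. The difference was 0.02 (SE 0.14; 95% interval -0.32 to 0.37; limma, adjusted p = 0.984). Its sign turned without PAR36-4 or Cont5-1, and also when the values were quantile normalized again, to -0.0252.

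RSL4 (AT1G27740), a bHLH factor downstream of RHD6 that sets how long root hairs grow, stood at 7.26, 7.12 and 7.80 in PAR18-2, PAR9-2 and PAR36-4, against 7.68, 7.31 and 7.36 in Cont1-1, Cont2-3 and Cont5-1. The highest and the lowest of the 6 values both came from 35S::VvMYBPAR lines. The difference was -0.06 (SE 0.21; 95% interval -0.57 to 0.45; limma, adjusted p = 0.970). It turned to a value above 0 without PAR18-2, PAR9-2 or Cont1-1, and was -0.26 without PAR36-4.

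The 3 wall and growth genes of root hairs varied more between lines of a group than the 3 targets of the complex did. EXPA7 (AT1G12560), an expansin that loosens the wall of growing hairs, stood at 9.41 in PAR18-2, 9.88 in PAR9-2 and 10.10 in PAR36-4, against 9.62 in Cont1-1, 9.29 in Cont2-3 and 9.68 in Cont5-1. PAR9-2 and PAR36-4 were above all empty vector lines, and PAR18-2 was inside their range. The difference was 0.27 (SE 0.21; 95% interval -0.24 to 0.77; limma, adjusted p = 0.915).

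EXPA18 (AT1G62980), another root hair expansin, stood at 6.81, 7.45 and 7.91 in PAR18-2, PAR9-2 and PAR36-4, against 6.95, 6.73 and 7.15 in Cont1-1, Cont2-3 and Cont5-1. Its order over the 6 lines was that of EXPA7, with PAR36-4 first and PAR9-2 next, and 3 of its 6 values lay below the trough. The difference was 0.44 (SE 0.29; 95% interval -0.25 to 1.14; limma, adjusted p = 0.915). Without PAR18-2 it was 0.73 (limma, adjusted p = 0.467) and for EXPA7 0.46 (limma, adjusted p = 0.579). Without PAR36-4 the values were 0.19 for EXPA18 and 0.11 for EXPA7.

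COBL9 (AT5G49270), listed in the gene table as SHV2, is a wall protein needed for the tip growth of root hairs. It stood at 9.68, 9.55 and 10.28 in PAR18-2, PAR9-2 and PAR36-4, against 10.06, 9.99 and 9.50 in Cont1-1, Cont2-3 and Cont5-1. The groups overlapped over most of their range. The difference was -0.02 (SE 0.24; 95% interval -0.61 to 0.57; limma, adjusted p = 0.993), and it was above 0 without PAR18-2, PAR9-2, Cont1-1 or Cont2-3. Without PAR36-4 it was -0.24.

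**Figure D2:**
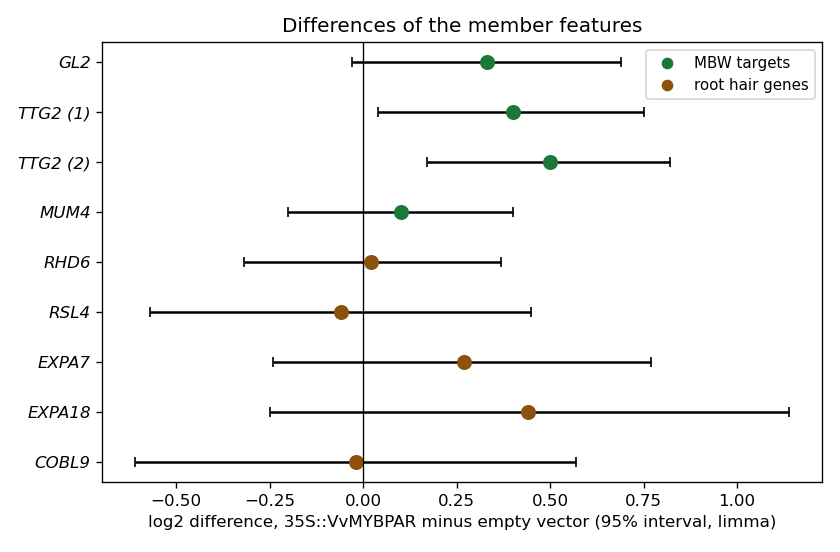
Log2 difference of each member feature, 35S::VvMYBPAR minus empty vector (horizontal axis), with its 95% interval from limma, not adjusted for the number of features. The targets of the complex are green and the root hair genes brown. The intervals of both TTG2 features lie above 0, from 0.04 and from 0.17, and all others include 0.

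The spread within groups differed among the members. The pooled SD was 0.417 for EXPA18, 0.348 for COBL9 and 0.291 for RSL4 and for EXPA7. It was 0.18 for GL2, 0.152 for the second TTG2 feature, 0.17 for RHD6 and 0.131 for MUM4, beside a median of 0.203 over all features and 0.16 over those with a mean at or above the trough. The intervals of the 4 most variable root hair genes were accordingly the widest of the 9.

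The genes of the complex itself had small differences, with MYB5 and TT8 apart from the rest. None of 10 passed across all features in limma, and the median was 0.12. At an unadjusted p under 0.05, 2 were higher, as were 2.41% of all features. A difference above 0 was found in 6, and in 53.3% of all loci. MYB5, a MYB factor of trichomes and seed coats, stood at 8.50, 8.11 and 8.08 in PAR18-2, PAR9-2 and PAR36-4, against 7.45, 7.58 and 7.73 in Cont1-1, Cont2-3 and Cont5-1, a difference of 0.64 (SE 0.15; limma, adjusted p = 0.915). TT8, the bHLH partner in pigment synthesis, had means of 8.78 ± 0.61 and 6.78 ± 0.28 (SD, n = 3 each), the second below the trough. It differed by 2.00 (SE 0.32; limma, adjusted p = 0.915). Both TT8 and MYB5 were higher without overlap of the groups, as were 6.32% of all features. The bHLH genes of epidermal fate, EGL3, GL3 and MYC1, differed by 0.32 (SE 0.15), 0.17 (SE 0.24) and 0.07 (SE 0.10). A second, dim feature of MYC1, with means of 6.99 and 6.60 below the trough, differed by 0.39 (SE 0.11; limma, unadjusted p = 0.011, adjusted p = 0.915). Its groups did not overlap either, and it is not in the counts above, which used the brightest feature of each locus. TTG1 differed by -0.05 (SE 0.11) in its brightest feature and by 0.12 and -0.23 in its other two.

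The MYB genes that specify trichomes and hairless cells had differences near 0. GL1, the trichome MYB, differed by 0.17 (SE 0.14), WER by -0.08 (SE 0.15) with both means below the trough, and MYB23 by -0.13 (SE 0.11). TT2, the MYB factor of seed coat tannins, differed by -0.16 (SE 0.15), also with both means below the trough. Leaving out 1 line turned the sign for GL3, to -0.06 without Cont5-1, for WER, to 0.02 without Cont1-1, and for TTG1, to 0.01 without PAR9-2. The single-repeat MYB genes, whose products compete with these factors for the bHLH partner, had a median of 0.12 over 7 loci. None was past the threshold in limma, and 1 was higher at an unadjusted p under 0.05, as were 2.41% of all features. Among them TCL1 was the 1 locus whose groups did not overlap, where 6.32% of all features were higher without overlap. It stood at 9.16, 9.11 and 9.43 in PAR18-2, PAR9-2 and PAR36-4 against 8.49, 9.02 and 8.70 in Cont1-1, Cont2-3 and Cont5-1. TCL1 differed by 0.50 (SE 0.17; limma, adjusted p = 0.915), TRY by 0.38 (SE 0.39), CPC by 0.16 (SE 0.14) and ETC3 by -0.38 (SE 0.32). The values of TRY and ETC3 each rested on 1 empty vector line, since TRY turned to -0.05 without Cont1-1 and ETC3 was -0.04 without Cont5-1. ETC1, with both means below the trough, differed by 0.12 (SE 0.22), ETC2 by 0.06 (SE 0.12) and TCL2 by 0.01 (SE 0.13), and the sign of ETC1 and of TCL2 turned in some of the fits that left out 1 line.

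Genes of trichome growth all had differences above 0, 5 of 5, with a median of 0.28, where 53.3% of all loci were above 0. None passed across all features in limma. At an unadjusted p under 0.05, 2 were higher, as were 2.41% of all features. GIS, a zinc finger factor of trichome initiation, stood at 10.37, 10.76 and 10.19 in PAR18-2, PAR9-2 and PAR36-4, against 9.71, 9.98 and 9.28 in Cont1-1, Cont2-3 and Cont5-1. All 3 35S::VvMYBPAR lines were above the empty vector lines, a difference of 0.79 (SE 0.23; limma, adjusted p = 0.915). NOK, a MYB factor that limits trichome branching, differed by 0.42 (SE 0.16; limma, adjusted p = 0.915), also without overlap. Of all features, 6.32% were higher without overlap. In 4 of the 5 loci PAR9-2 was the highest line, where 23.5% of all loci had their highest value in it. Without PAR9-2 the median of the list was 0.15, with 4 above 0, and without PAR18-2 it was 0.45. Among the homeodomain relatives of GL2, HDG12 differed by 0.38 (SE 0.16) and HDG11 by 0.13 (SE 0.18), and the median over 5 loci was 0.06.

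None of the genes related to MUM4 passed the test, and none reached an unadjusted p under 0.05. The 3 other loci of rhamnose synthesis had a median of 0.19, with RHM3 at 0.19 (SE 0.09) and RHM1 at 0.20 (SE 0.11). Over 12 genes of seed coat mucilage the median was -0.02, with 5 above 0. The smallest p values in that list belonged to BXL1, a wall glycosidase, at -0.77 (SE 0.33), and to GATL5, a glycosyltransferase, at 0.18 (SE 0.12). BXL1 was lowest in PAR9-2, at 12.75 where the other lines lay between 13.68 and 14.53, and without PAR9-2 its difference was -0.44.

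**Figure D3:**
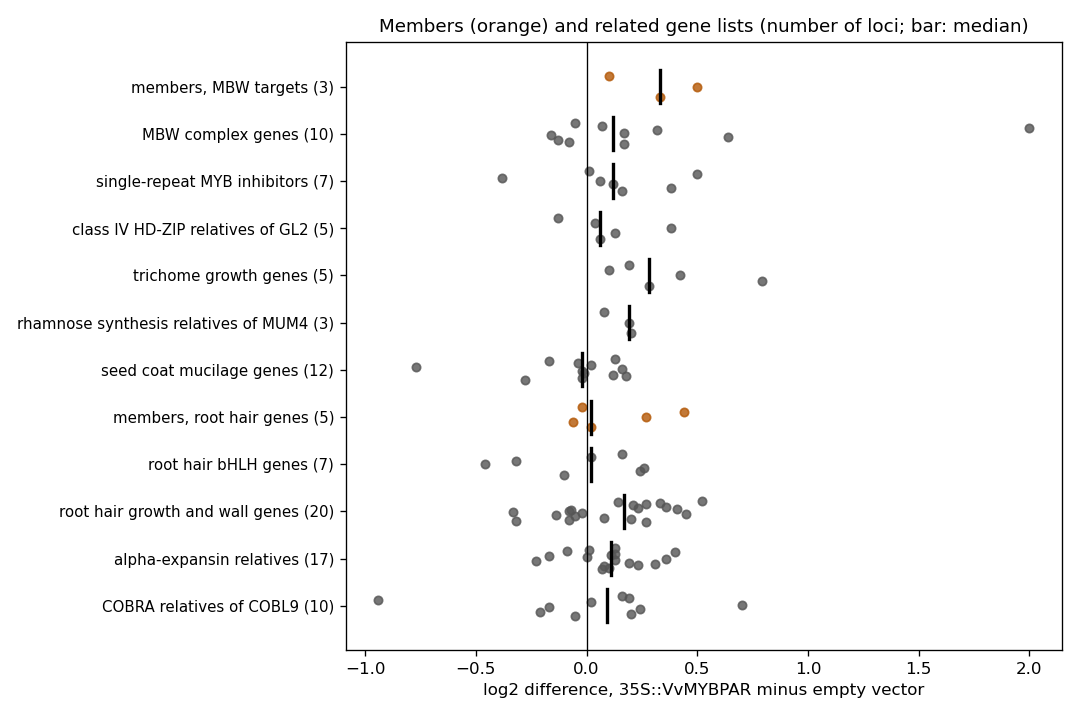
Log2 difference of each locus, 35S::VvMYBPAR minus empty vector (horizontal axis), for the members (orange) and for the related gene lists (grey), with the list medians as black bars and the number of loci in parentheses. The list medians lie between -0.02 and 0.33, and TT8, at 2.00, is the point farthest to the right.

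None of the wider root hair genes passed the test either. Of 7 other bHLH genes of root hairs 1 was lower at an unadjusted p under 0.05 in limma, as were 1.91% of all features, 4 were above 0, and the median was 0.02. AT5G43175 differed by -0.46 (SE 0.10; limma, adjusted p = 0.915) with values from 3.27 to 3.41 in the 35S::VvMYBPAR lines and from 3.76 to 3.79 in the empty vector lines, all far below the trough. LRL1 differed by -0.32 (SE 0.17), and by -0.18 without PAR9-2. LRL2 differed by 0.02 (SE 0.11) and LRL3 by 0.16 (SE 0.19), and both turned below 0 without PAR36-4. In 4 of the 7 loci, AT5G43175 included, both means were below the trough. The other 3 were RSL1, with means of 6.15 and 6.25 in 35S::VvMYBPAR and empty vector lines, RSL2, with 4.16 and 3.93, and AT2G14760, with 4.18 and 3.93 and a difference of 0.26 (SE 0.14).

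Of 20 genes of hair growth and wall 1 was lower at an unadjusted p under 0.05 in limma, as were 1.91% of all features. The median was 0.17, and 12 were above 0, as were 53.3% of all loci. LRX2, a wall protein of the extensin kind, differed by -0.32 (SE 0.12), and COW1, a lipid transfer protein that orients hair growth, by 0.45 (SE 0.19), both with limma adjusted p = 0.915. Without PAR36-4 the median of these 20 was -0.01, with 10 above 0. Of the relatives of the expansins and of COBL9 none passed in limma. The expansins had a median of 0.11 over 17 loci, 0 of them at an unadjusted p under 0.05, with EXPA5 at 0.31 (SE 0.15) and EXPA15 at 0.40 (SE 0.20). The COBRA genes had a median of 0.09 over 10 loci, with COBL4 at 0.24 (SE 0.09) and COBL2 at -0.21 (SE 0.10). Of them 1, COBL4, was higher at an unadjusted p under 0.05, as were 2.41% of all features.

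The highest values of the root hair genes came mostly from 1 line. Over the members and both root hair lists, 18 of 32 loci (56.2%) had their highest value in PAR36-4, where 16.3% of all loci had theirs. PAR18-2 was highest in 0 of the 32, and 13.0% of all loci were highest in it. PAR36-4 was also the highest line in 7 of 17 expansin relatives (41.2%) and in 4 of 10 COBRA relatives (40.0%), and the difference between these shares and that of the root hair loci was not tested. Relative to the empty vector mean, the 5 root hair members averaged -0.14 in PAR18-2, 0.05 in PAR9-2 and 0.49 in PAR36-4, against 0.16 in Cont1-1, -0.10 in Cont2-3 and -0.06 in Cont5-1. The 20 growth and wall genes averaged -0.05, 0.03 and 0.38 in PAR18-2, PAR9-2 and PAR36-4, against 0.04, -0.06 and 0.02 in the empty vector lines in the same order. This pattern was picked out with its values in view and rests on 1 array of 1 line, so it has no replicate.

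The targets of the complex did not share that order in their mean, though MUM4 too was highest in PAR36-4, at 13.51. GL2, TTG2 and MUM4 averaged 0.37 in PAR18-2, 0.27 in PAR9-2 and 0.29 in PAR36-4, against -0.01 in Cont1-1, 0.06 in Cont2-3 and -0.05 in Cont5-1. All 3 35S::VvMYBPAR lines were above the empty vector lines in this mean, by similar amounts. Taken singly, TTG2 alone was separated in this way, as were 6.32% of all features, while GL2 and MUM4 overlapped. How often the mean of 3 loci separates in this way was not tested. The genes behind this mean ranked the 35S::VvMYBPAR lines differently. Among these lines GL2 was lowest in PAR9-2, at 9.71, and MUM4 in PAR18-2, at 13.38. The second TTG2 feature was lowest in PAR36-4, at 9.77. LRX1 and RHS15, named after their values were seen, show how far PAR36-4 stood out at some root hair loci. LRX1, a wall protein of root hairs, was at 11.65 in PAR36-4, with 10.65 and 10.89 in PAR18-2 and PAR9-2 and from 10.72 to 10.86 in the empty vector lines. RHS15, named for its expression in root hairs, was at 10.13 in PAR36-4, with 9.20 and 8.98 in PAR18-2 and PAR9-2 and from 9.05 to 9.12 in the empty vector lines. Of the 20 growth and wall genes 11 were highest in PAR36-4, and others, also named after their values were seen, went the other way. PRP1, at 10.11, and RHD4, at 12.87, were lower in PAR36-4 than in any other line. LRX2, at 12.01, and XTH26, at 6.47, were lower in PAR36-4 than in any empty vector line.

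Root markers were in part also highest in this line. Relative to the empty vector mean, the 10 root markers averaged 0.12, 0.06 and 0.37 in PAR18-2, PAR9-2 and PAR36-4, against -0.05, 0.14 and -0.09 in Cont1-1, Cont2-3 and Cont5-1, and 5 of the 10 were highest in PAR36-4. The nitrate transporter gene NRT2.1 was at 10.32 in PAR36-4 and at most 9.31 elsewhere. The endodermal gene CASP1 was at 12.54 in PAR36-4, below its 12.77 to 13.07 in the empty vector lines. Leaf markers averaged 0.01, -0.14 and 0.01 in PAR18-2, PAR9-2 and PAR36-4, against -0.02, -0.03 and 0.04 in the empty vector lines. Floral organ markers averaged 0.18, 0.93 and 1.04, against -0.75, 0.71 and 0.04, so PAR36-4 was the highest line there too, and it was highest in 4 of the 7 floral loci (57.1%). The part of organ makeup in the root hair values was not tested.

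**Figure D4:**
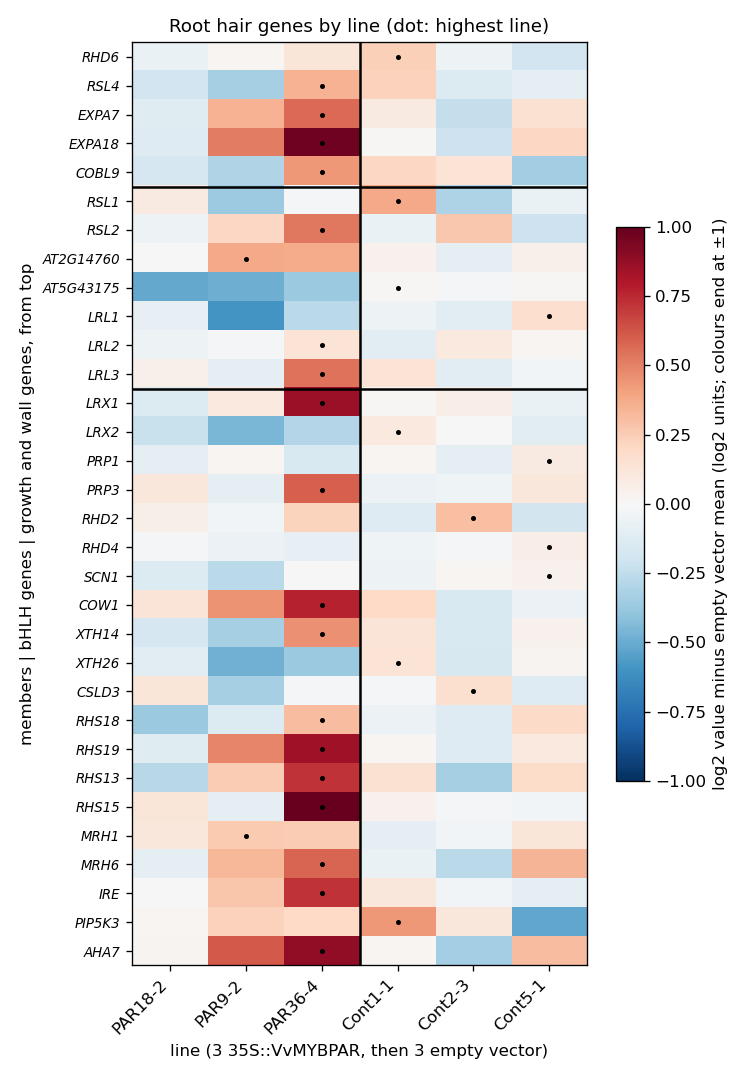
Log2 value minus the mean of the empty vector lines (colour, ending at ±1) for 32 root hair loci (rows) in the 3 35S::VvMYBPAR lines (left) and the 3 empty vector lines (right), with a dot on the highest line of each locus. The PAR36-4 column holds 18 of the 32 dots and the PAR18-2 column 0.

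**Figure D5:**
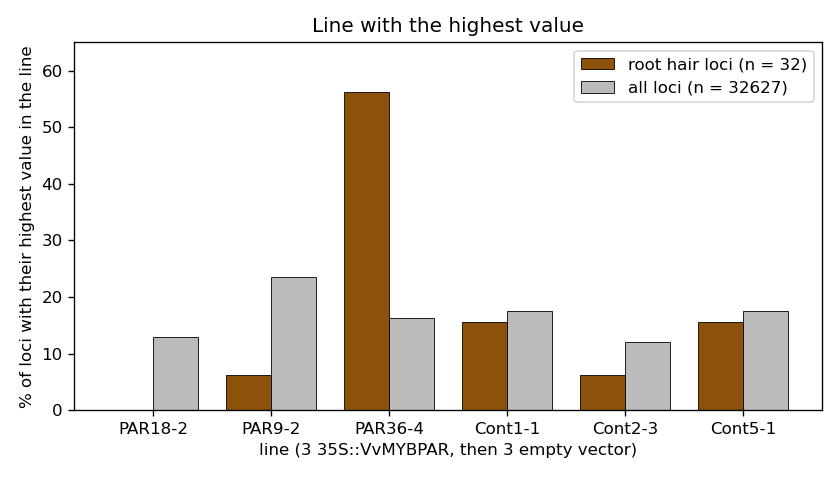
Share of loci, in percent, that had their highest value in each line (horizontal axis, 35S::VvMYBPAR lines first), for 32 root hair loci (brown) and all 32627 loci (grey). PAR36-4 holds 56.2% of the root hair loci and 16.3% of all loci.

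The loci whose values followed each member most closely over the 6 arrays were taken among 9085 or 9086 candidates with a mean at or above the trough and a range of at least 0.5. With 6 arrays and so many candidates high values of Pearson's r arise readily, the arrays also share 1 normalization, and the values below are a description. For EXPA18 the closest were AT5G06630 (r = 0.998), RHS19 (r = 0.992), whose name stands for root hair specific, and AT3G61930 (r = 0.986). For EXPA7 they were SAUR76 (AT5G20820, r = 0.983), AT1G19230 (r = 0.980) and EXPA18 itself (r = 0.977). AT5G06630 stood at 9.38, 10.26 and 10.77 in PAR18-2, PAR9-2 and PAR36-4, against 9.55, 9.28 and 9.79 in Cont1-1, Cont2-3 and Cont5-1, the same order over the 6 lines as EXPA18.

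The closest loci of the other members were not root hair genes by name. For GL2 they were CSLG3 (r = 0.987), AT1G66830 (r = 0.969) and SHI (r = 0.966). For TTG2 they were IDL2 (r = 0.988), CEP1 (r = 0.986) and AT5G54970 (r = 0.976), and for MUM4 AT3G01010 (r = 0.992), AT2G47895 (r = 0.988) and AT3G22540 (r = 0.980). For RHD6 they were MIR840 (r = 0.995), the mitochondrial locus ATMG00760 (r = 0.993) and AT2G36940 (r = 0.992). RSL4 was followed by HMA5 (r = 0.967), ABR1 (r = 0.966) and AT5G56220 (r = 0.954), and COBL9 by AT2G07674 (r = 0.976), PORB (r = 0.969) and ERF9 (r = 0.962). No member other than EXPA18 appeared among the closest loci of another member. MUM4 and RHD6, with ranges of 0.35 and 0.43, were not among the candidates and so could not appear.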

How the data were processed

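RNA of 6 lines was read on NimbleGen arrays. The authors deposited 1 intensity per feature and array, on a linear scale per the file headers, and the method was RMA per the submitters' processing notes. Its version, the probe annotation and the genome build: not given in the sources used here. The series table, which the authors deposited in log2, matched log2 of these intensities within 1.66e-06. RMA normalizes by quantiles, so a shift shared by most transcripts would not be seen.

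Log2 intensities were tested with limma 3.58.1 in R 4.3.3 (lmFit, eBayes) over all 37118 features, with no filter and no covariate. Adjustment was by Benjamini-Hochberg over all features, at a threshold of 0.05. The p-values measure the spread between separate lines. Counts of loci and medians used the brightest feature of each locus. Groups were taken from the labels. All 6 arrays bear 1 slide number, so no batch was modelled. Gene names come from RefSeq's table for TAIR10.1, in which 31993 of 32627 loci had a match. It gave the list name of 128 of the 131 loci looked up, and 3 keep another symbol or their identifier. The model was tested on simulated data, in 20 runs, where 5.72% of its calls were false. It recovered 46.7% of changes of 1 log2 unit and 90.5% of changes of 2. Smaller changes, such as the differences of the members, were not simulated.

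The members and all lists were chosen with earlier results of these data known. Every member was to be named, as were the genes of the complex and its inhibitors and the root hair bHLH genes. From each other list the loci past the threshold were to be named, or the 2 with the smallest p where none passed, and for each member the 3 loci of highest Pearson's r. The clock genes, the organ markers and genes said to be chosen later fall outside this. Alternatives covered normalization, the series table, moderation, a filter on dim features, a pseudocount of 32, array weights, a replicate block, the features of a locus and each array left out.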

Additional observations from a re-analysis of the deposited data

How the results depend on the processing

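No member feature passed the threshold under any of the 16 alternatives, and the smallest adjusted p of a member in any of them (limma) was 0.467, without PAR18-2. The differences of GL2, TTG2, MUM4, EXPA7 and EXPA18 stayed above 0 in all 16. RHD6 turned to -0.0252 with a repeated quantile normalization, and with array weights RSL4 turned to 0.0778 and COBL9 to 0.0384; all 3 lie near 0. Over the 6 fits that left out 1 array, RHD6 ranged from -0.0722 to 0.143, RSL4 from -0.262 to 0.0785 and COBL9 from -0.24 to 0.13. The median of the targets of the complex ranged from 0.24 to 0.45 over these fits and that of the root hair members from -0.0722 to 0.143. The count of all features past the threshold, 2, ranged from 0 to 3 over these fits, was 0 with no moderation, and was 0 with the replicate block, where BAN too was not past it. The replicate block changed no call of a member, and left 1 of the 9, the second TTG2 feature, at an unadjusted p under 0.05. The numbers showed no clear pairing of the lines: deviations from the group means of same-numbered arrays had correlations of 0.295, -0.0579 and 0.239. Not every array correlated best with its own number. With 3 arrays per group, whose deviations sum to 0, these correlations cannot exclude a pairing. The number of root hair loci highest in PAR36-4 was 18 to 20 of 32 under another scaling or with the features of a locus averaged, and 17 of 27 among those with a mean at or above the trough, alternatives chosen after the data were seen. The number of arrays and values near background, for RHD6, RSL4 and EXPA18, limit the precision.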
